A study of Mus musculus with 4 samples.

Results

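Imprinted genes were examined in structures cut by laser from the fetal mouse kidney. The set held 33 genes known to be imprinted in the mouse, chosen by name, and it took every probe set whose platform symbol was 1 of those names. Of the 33 genes, 29 had at least 1 probe set of their own, 80 probe sets in all, among 18193 genes with such a probe set on the array. In the comparison 23 of the 29 were bright enough to be tested, of 12642 genes tested, and the other 6 were too dim. H19, Rtl1, Dio3 and Zrsr1 had no probe set that carried their symbol alone.

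One array held cortical collecting duct, which grows from the ureteric bud and collects the urine of the outer kidney. It was set against 3 arrays, numbered 1 to 3, of the anlage (embryonic precursor) of Henle's loop, which arises within the nephron between proximal and distal tubule. All 4 arrays came from wild-type embryos of the outbred CD-1 stock at E15.5 (days of embryonic development), Theiler stage 23, with sex not recorded. Each array held RNA amplified over 2 rounds from a pool of about 50 sections of 5 kidneys, and the labels do not say whether pools shared kidneys or litters, so the p-values measure the spread between these samples, which may be technical. In such captured tissue, fewer cells of a type and less RNA per cell cannot be told apart.

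An imprinted gene is transcribed mainly from the copy inherited from 1 parent, because DNA methylation laid down in the egg or sperm marks the other copy or a nearby control region. Many imprinted genes sit in clusters that share such a region, and many act on fetal growth: several genes read from the paternal copy, such as Igf2, promote it, and several read from the maternal copy, such as Igf2r, Grb10, Cdkn1c and Phlda2, restrain it. The arrays measured the sum of both copies, so the results below say nothing about which copy was read. In the kidney the gene family is known best for Igf2 and H19, which are abundant in the fetal organ, and for Cdkn1c, loss of which disturbs the renal medulla in mice.

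Some of these transcripts carry microRNAs, which bear on how the array names them. The 1 bright probe set for H19 is assigned to both H19 and Mir675, because the precursor of miR-675 lies within the H19 transcript. Igf2 and Mest each hold 1 hairpin in RefSeq's miRNA table (GRCm38.p6), Rian holds 3 and Mirg holds 10. The mature sequences hosted by H19, Igf2 and Mest, whose transcripts are described by value below, are shown 5′ to 3′ with the seed (bases 2 to 8) in capitals. The 6 seeds all differ. The mature microRNAs themselves were not measured.
miR-675-5p: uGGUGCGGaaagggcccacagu
miR-675-3p: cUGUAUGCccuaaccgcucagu
miR-483-5p: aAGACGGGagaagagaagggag
miR-483-3p: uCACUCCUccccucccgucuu
miR-335-5p: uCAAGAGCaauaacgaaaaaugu
miR-335-3p: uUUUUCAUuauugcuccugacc

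RefSeq promoter windows (250 bases before to 50 after a gene's start, GRCm38.p6) were listed for 27 of the 33 genes, 41 windows in all. The windows of imprinted genes held a median of 15 CpG dinucleotides, against 7 over all 32851 windows. The hexamer TGCCGC, which the zinc finger protein ZFP57 binds when methylated at imprinting control regions of mouse embryonic stem cells, was searched on both strands. It was in 11 of the 41 windows (26.8%), against 11.6% of all windows, and by gene in 10 of 27 (37.0%), against 13.1% of all genes with a window. A CpG-rich window has more chances to hold it, and a match here is a stretch of letters, not a bound site. The matches are shown on the gene's strand with up to 12 bases on each side and with the hexamer in capitals, which reads GCGGCA where it lies on the opposite strand.
Plagl1 (chr10:13090730-13090759, plus strand): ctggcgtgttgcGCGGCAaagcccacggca
Grb10 (chr11:12037379-12037408, minus strand): gggtgcggggagGCGGCAggaagggaaggg
Meg3 (chr12:109540794-109540823, plus strand): gccaggggcactGCGGCAgatttttttttc
Mcts2 (chr2:152686898-152686918, plus strand): gccTGCCGCagcttggcgcat
Nnat (chr2:157560093-157560122, plus strand): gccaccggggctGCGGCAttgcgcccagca
Mest (chr6:30737800-30737825, plus strand): ccttgcccGCGGCAttaacacatggg
Mest (chr6:30737971-30738000, plus strand): aggaggggcgctGCGGCAggatgggcgggt
Nap1l5 (chr6:58907133-58907162, minus strand): cagccattcactTGCCGCgagccgcgaagc
Nap1l5 (chr6:58907082-58907111, minus strand): gccgtcagcgttTGCCGCatcttcagacgc
Zim1 (chr7:6696435-6696464, minus strand): gaaagtcatcccGCGGCAttccactccggg
Snrpn (chr7:60005184-60005213, minus strand): gacccctgcattGCGGCAaaaatgtgcgca
Igf2 (chr7:142661224-142661253, minus strand): tacggtgtcccaGCGGCAgcacagattttg

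The arrays differed in signs of RNA quality and in marker genes of several cell types. For Gapdh the 3′ probe set read 12 times the 5′ one on the collecting duct array, against 10.3, 54.1 and 26 times on anlage arrays 1, 2 and 3, and short or incompletely copied transcripts raise this ratio. Marker genes ran in the direction of the labels. Their lists were chosen with earlier results of these data known, so they do not test the labels. Of 15 collecting duct markers 13 lay above all 3 anlage arrays, against 17.3% of all tested genes, and 0 below (median log2 difference 2.48). Of 12 loop markers 12 lay below, against 24.3% of all tested genes (median −3.15). Among markers of other cells, the collecting duct value was below the anlage mean for 12 of 12 tested endothelial genes and 5 of 5 tested macrophage genes. It was below for 8 of 8 proximal tubule genes, 6 of 9 tested cap mesenchyme genes and 3 of 4 tested podocyte genes. The same held for 12 of 18 interstitial stroma genes, and for 6940 of all 12642 tested genes. The mean log2 value of 18 interstitial stroma markers was 12.40 in collecting duct and 11.99, 12.33 and 13.73 over the anlage, with Lum (14.66) and Acta2 (16.17) highest in anlage array 3. Several imprinted genes are prominent in neurons. Of 12 neural markers 10 had a probe set and 6 were bright enough to test, with a mean of 8.67, against 9.0004, 8.91 and 9.01. The part of these cells in the results was not tested.

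No imprinted gene passed the test after adjustment, and Phlda2 had the largest difference of them. Values are log2 of the quantile-normalized signal plus an offset of 109.6, called log2 values, and a difference is the collecting duct value minus the anlage mean. In limma over all tested genes, 0 of 23 imprinted genes passed an adjusted p of 0.05, where the background was 0% of all genes (0 of 12642). At an unadjusted p under 0.05 there was 1, Phlda2, in the higher direction (4.35% of the 23, where the background was 1.18% higher, 2.23% lower and 3.41% in either direction). All 23 adjusted p-values of limma were 1.00. The collecting duct value lay above all 3 anlage arrays for 4 genes, Phlda2, Peg3, Impact and Igf2 (17.4%, background 17.3%), and below all 3 for 2, Magel2 and Mest (8.70%, background 24.3%). The median difference was 0.22, against −0.06 over all tested genes, and 13 of 23 differences were positive (56.5%, against 45.1%). For 19 of 23 genes the difference was smaller than the SD of the 3 anlage arrays, a share of 82.6% against 60.1% of all tested genes. The counts rest in part on single arrays: without anlage array 1, 12 of 23 lay above (background 27.1%) and 6 below (46.2%), 7 had an unadjusted p under 0.05 and 0 passed after adjustment. With arrays scaled to a common median, 2 lay above (background 10.1%), Phlda2 and Ube3a, and 1 below (background 20.4%), Magel2, so Peg3, Impact, Igf2 and Mest lost that place and Ube3a gained it.

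**Figure D1:**
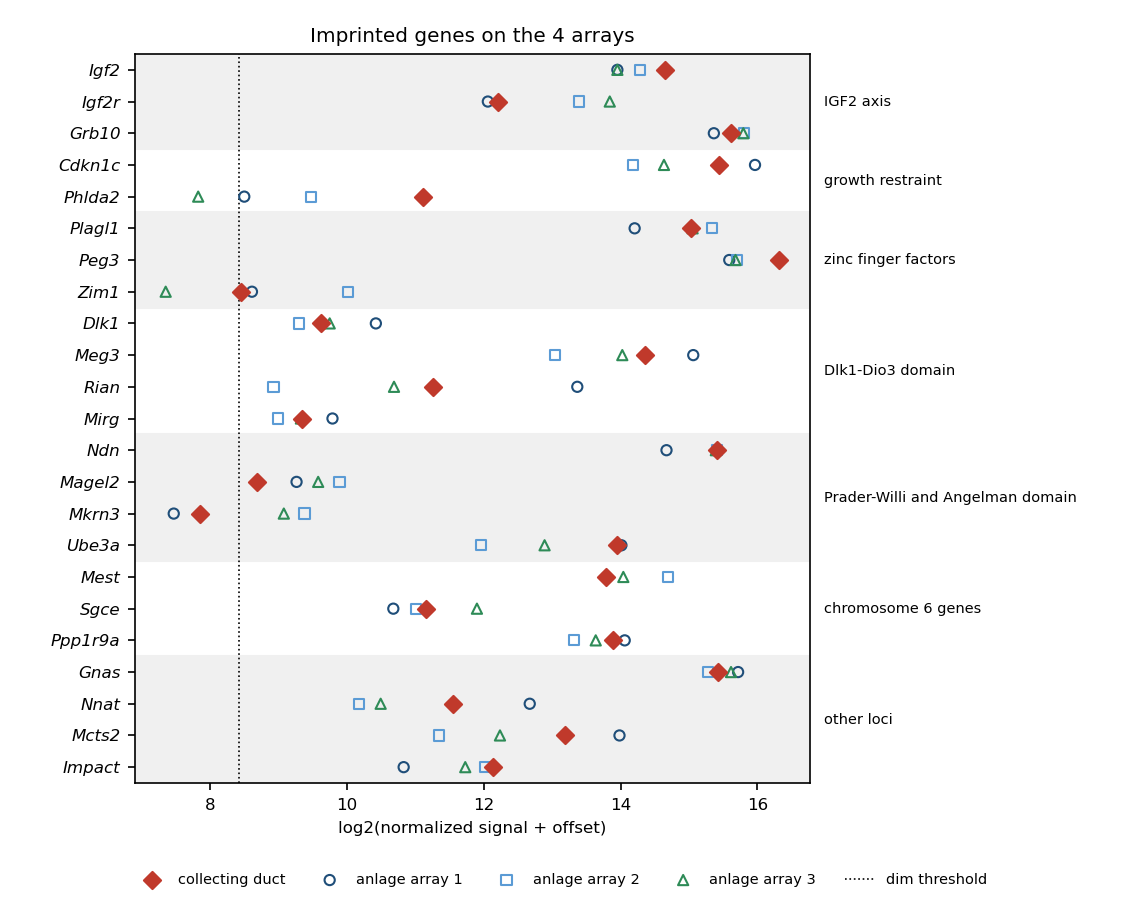
Log2 values (x axis, log2 of normalized signal plus offset) of the 23 tested imprinted genes (rows, grouped by role) in the collecting duct array (filled diamonds) and the 3 anlage arrays (open symbols); the dotted line is the level under which a gene's mean was too dim to test. The diamond lies right of all 3 anlage symbols for Igf2, Phlda2, Peg3 and Impact, and Rian is spread widely over the anlage arrays (8.92 to 13.37).

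Phlda2 had the largest difference among the imprinted genes. It encodes a pleckstrin-homology protein that limits growth of the placenta in mice. Its log2 value was 11.12 in the collecting duct, against 8.50, 9.47 and 7.82 in anlage arrays 1, 2 and 3, so the groups did not overlap. The difference was 2.52 ± 0.74 (SE), or 5.74-fold on this scale, with a 95% interval of 0.72 to 4.32 and an unadjusted p of 0.0141, and it did not pass after adjustment in limma. Before normalization the signal was 2197 in the collecting duct and 365.1, 375.4 and 117.3 in the anlage arrays. One anlage value lay under the dim level of 8.42, so the size of the difference depends on the offset, and Phlda2 rests on 1 probe set. Leaving out 1 anlage array at a time gave differences from 2.13 to 2.96.

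Cdkn1c and Ascl2, other genes of the set near Phlda2 on chromosome 7, had smaller differences. Kcnq1, after which the domain of Phlda2 and Cdkn1c is named, was read in another list. It lay above all 3 anlage arrays (1.16 ± 0.51). Cdkn1c, the cyclin-dependent kinase inhibitor p57 that holds cells out of the cycle, stood at 15.44 in the collecting duct and 15.96, 14.19 and 14.63 in the anlage, a difference of 0.51 ± 0.69 (95% interval −1.18 to 2.21). The collecting duct lay inside the anlage range. Without anlage array 1 its difference was 1.03, and without array 2 it was 0.14. Ascl2, a basic helix-loop-helix factor of the trophoblast, was too dim to test, at 8.19 against 7.27, 8.96 and 8.57. Of 12 genes in a list of cyclins, cyclin-dependent kinases, related inhibitors and Pcna, 11 were tested. In limma 0 passed after adjustment and 1 (9.09%) had an unadjusted p under 0.05, in the lower direction (background 2.23%). That gene was Ccnd1, for cyclin D1, at 14.23 against 15.77, 15.14 and 15.74, below all 3 anlage arrays (−1.32 ± 0.39). Ccnd2, for cyclin D2, stood at 15.82 against 16.06, 12.27 and 14.68, inside their range (1.48 ± 1.32).

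The promoter window of Phlda2, the imprinted gene with the largest difference, and that of Peg3, which has the smallest anlage SD on this scale, are shown on the gene's strand with each CpG in capitals. The Phlda2 window held 26 CpG and the Peg3 window 13, and neither held TGCCGC. The Peg3 window shares 263 bases with that of Usp29, which is transcribed the other way from the same imprinted promoter region.
Phlda2 (chr7:143502475-143502774, minus strand): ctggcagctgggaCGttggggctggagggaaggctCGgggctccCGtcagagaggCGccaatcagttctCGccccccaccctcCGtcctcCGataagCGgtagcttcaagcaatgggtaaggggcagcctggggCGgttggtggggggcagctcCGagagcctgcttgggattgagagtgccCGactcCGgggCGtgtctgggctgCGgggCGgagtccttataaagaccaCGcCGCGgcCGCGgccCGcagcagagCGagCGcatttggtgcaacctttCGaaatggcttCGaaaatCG
Peg3 (chr7:6730370-6730669, minus strand): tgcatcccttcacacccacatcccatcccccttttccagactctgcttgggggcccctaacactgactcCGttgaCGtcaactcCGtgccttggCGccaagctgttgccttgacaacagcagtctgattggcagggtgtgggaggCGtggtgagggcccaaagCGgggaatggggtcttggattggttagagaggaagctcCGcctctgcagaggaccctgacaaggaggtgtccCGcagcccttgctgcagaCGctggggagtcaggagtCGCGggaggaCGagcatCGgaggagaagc

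Peg3 had the smallest anlage SD of the imprinted genes after quantile normalization, 0.06. It encodes a large zinc finger protein that represses other genes and is read from the paternal copy. Its log2 value was 16.32 in the collecting duct, against 15.59, 15.71 and 15.68 in the anlage arrays. The collecting duct lay above all of them, by 0.66 ± 0.28 (SE, 95% interval −0.02 to 1.34, 1.58-fold). The difference did not pass, with an unadjusted limma p of 0.0545. It lay between 0.46 and 0.96 under the settings tried. With arrays scaled to a common median Peg3 stood at 16.26 against 14.96, 16.54 and 15.90, inside the anlage range, and the anlage SD was 0.80. All 5 probe sets of Peg3 had their highest value in the collecting duct array, 2 of them too dim to test. Probe sets of a gene read the same RNA and are not replicates. A probe set with a difference of 1.76 stood at 13.49 against 13.24, 10.20 and 11.76, so 1 anlage array came close to the collecting duct there.

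The neighbours of Peg3 lay near or under the dim level. Zim1, a zinc finger gene read from the maternal copy in mice, stood at 8.44 against 8.61, 10.02 and 7.35, with a difference of −0.22 ± 1.01. Usp29, named for its likeness to ubiquitin-specific proteases, was too dim to test at 7.71 against 9.31, 7.60 and 8.48. Plagl1, a zinc finger transcription factor on chromosome 10 that is known to regulate other imprinted genes in mice, stood at 15.03 in the collecting duct and 14.20, 15.33 and 15.05 in the anlage by its brightest probe set (0.17 ± 0.51). Its 2 dimmer probe sets lay above all 3 anlage arrays. One of them stood at 12.09 against 11.24, 8.67 and 9.86 (2.16). The other stood at 10.39 against 9.56, 8.72 and 8.15 (1.58). In the fit on the mean of a gene's probe sets, Plagl1 differed by 1.30, with an unadjusted p under 0.05 and no call after adjustment.

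Igf2, the ligand of the group and a growth factor of the fetus, stood at 14.64 in the collecting duct, against 13.95, 14.29 and 13.95 in the anlage arrays. The collecting duct was the highest, and the difference of 0.58 ± 0.39 (SE, 95% interval −0.38 to 1.54) did not pass. Its other probe set did not show this, at 12.86 against 13.68, 12.47 and 12.82 (−0.13). The probe set shared by H19 and Mir675 stood at 16.59 against 16.53, 16.33 and 16.47. That is a difference of 0.15 ± 0.30 in a fit over every probe set. H19 is a long noncoding RNA of the same domain that is read from the maternal copy.

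The receptor Igf2r carries IGF2 to the lysosome for breakdown. Its brightest probe set stood at 12.21 in the collecting duct, against 12.06, 13.39 and 13.84 in the anlage arrays (−0.89 ± 0.76, 95% interval −2.75 to 0.97). The second probe set had the opposite sign, at 12.26 against 13.46, 9.57 and 11.98 (0.58). In both the collecting duct lay inside the anlage range. Grb10, an adaptor that dampens signalling by the insulin and IGF1 receptors, stood at 15.62 against 15.36, 15.81 and 15.79, a difference of −0.04 ± 0.33 with an interval of −0.85 to 0.77. Of 15 partners of IGF2 signalling, 12 were tested, 6 with a higher and 6 with a lower value, and in limma 0 passed after adjustment and 0 had an unadjusted p under 0.05. The largest positive differences among them were those of the RNA-binding proteins Igf2bp1 (0.97 ± 0.93) and Igf2bp3 (0.96 ± 0.63), which bind Igf2 transcripts. Igf2bp3 stood at 14.50 against 14.14, 12.72 and 13.75. The insulin receptor Insr (−0.57 ± 0.54) had the lowest.

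**Figure D2:**
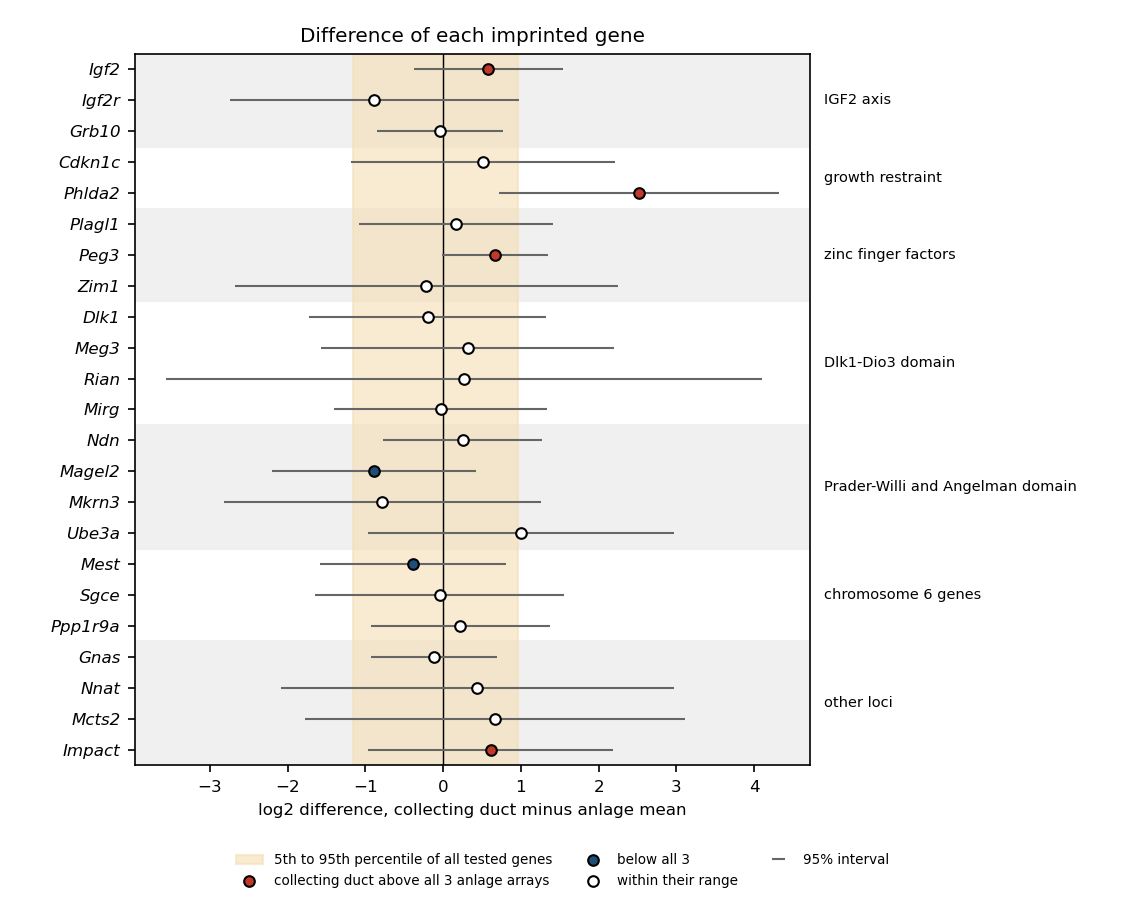
Difference on the log2 scale, collecting duct minus anlage mean (x axis), of the 23 tested imprinted genes (rows) with the 95% interval of the limma fit as bars; the shaded band spans the 5th to the 95th percentile of all tested genes, −1.16 to 0.96. The interval of Phlda2, 0.72 to 4.32, is the 1 that leaves out 0.

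By their brightest probe sets, the 4 measured genes of the Dlk1-Dio3 domain on chromosome 12 had the collecting duct inside the anlage range. By these probe sets all 4 had their highest anlage value on array 1 and their lowest on array 2. Meg3, a long noncoding RNA read from the maternal copy, stood at 14.36 in the collecting duct and 15.06, 13.04 and 14.02 in anlage arrays 1, 2 and 3. Rian, a noncoding RNA that holds small nucleolar RNAs, stood at 11.26 and 13.37, 8.92 and 10.69. Mirg, which holds microRNAs, stood at 9.34 and 9.79, 8.99 and 9.32. In each of these the order was anlage array 1, collecting duct, anlage array 3, anlage array 2, from high to low. Other bright probe sets of Rian and Mirg did not have this order. A Rian probe set stood at 9.48 against 8.80, 8.61 and 9.25, above all 3 anlage arrays, and another at 7.97 against 9.82, 7.62 and 9.11. The other Mirg probe set stood at 8.33 against 9.18, 8.54 and 8.49, below all 3. Dlk1, a transmembrane protein related to Notch ligands and read from the paternal copy, stood at 9.62 against 10.42, 9.30 and 9.75, with the collecting duct below anlage array 3. The differences were 0.32 ± 0.77, 0.26 ± 1.57, −0.03 ± 0.56 and −0.20 ± 0.62 for Meg3, Rian, Mirg and Dlk1. The 95% intervals were −1.57 to 2.20 for Meg3 and −1.72 to 1.33 for Dlk1. That of Rian ran from −3.57 to 4.10, so these arrays bound its difference loosely. The domain's other listed genes, Rtl1 and Dio3, were not measured by a probe set of their own.

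Sorted from low to high 3′ over 5′ ratio of Gapdh the arrays run anlage 1, collecting duct, anlage 3, anlage 2, and the same order runs from high to low in the median deposited signal (402.7 in the collecting duct, against 526.5, 206.9 and 344.1 in anlage arrays 1, 2 and 3). The ratio of the transferrin receptor puts the collecting duct first, at 1.38 against 1.42, 3.28 and 1.55. Among the 23 imprinted genes 8 (34.8%) ran from high to low as anlage array 1, collecting duct, anlage array 3, anlage array 2, against 7.17% of all tested genes. These were Meg3, Rian, Mirg, Cdkn1c, Ube3a, Nnat, Ppp1r9a and Mcts2. Within the anlage alone, 10 of 23 (43.5%) had array 1 highest and array 2 lowest, against 17.5% of all tested genes. The further ones were Dlk1 and Gnas. The reverse, array 2 highest and array 1 lowest, was found for 9 of 23, and for 4354 of all 12642 tested genes. In the other gene lists the order over 4 arrays was found for 3 of 34 other imprinted genes (8.82%) and 5 of 25 genes that lay down or keep imprints (20%). It was found for 3 of 12 partners of IGF2 signalling (25%) and 2 of 11 cell cycle genes (18.2%). Array 1 was highest and array 2 lowest in the anlage for 5 (14.7%), 8 (32%), 5 (41.7%) and 6 (54.5%) of these lists in turn. That held for 8 of 12 loop markers (66.7%) and 0 of 15 collecting duct markers. These counts with arrays scaled to a common median were an alternative added after seeing the data. There 3 of the 23 imprinted genes had the order over 4 arrays (13%, against 2.22% of all genes), Rian, Mirg and Mcts2. For 6 of the 23, array 1 was highest and array 2 lowest in the anlage (26.1%, against 6.94%). Among the 59 imprinted probe sets bright enough to test, 17 (28.8%) had the order over 4 arrays, against 10.7% of all such probe sets, and 5 of the 9 bright probe sets of Meg3 did. The median anlage SD of the imprinted genes was 0.62, against 0.46 for all tested genes, and 0.87 against 0.76 with the median scaling. The 23 imprinted genes were brighter than the background they are set against. Their array means were 12.63 (collecting duct), 12.61, 12.30 and 12.37 (anlage arrays 1, 2 and 3). Those of all tested genes were 10.91, 10.82, 11.09 and 11.05, in the same sequence. The pattern of array order was chosen after its values were seen. The part of RNA quality, of array signal or of gene brightness in it was not tested, nor that of brightness in the SD.

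**Figure D3:**
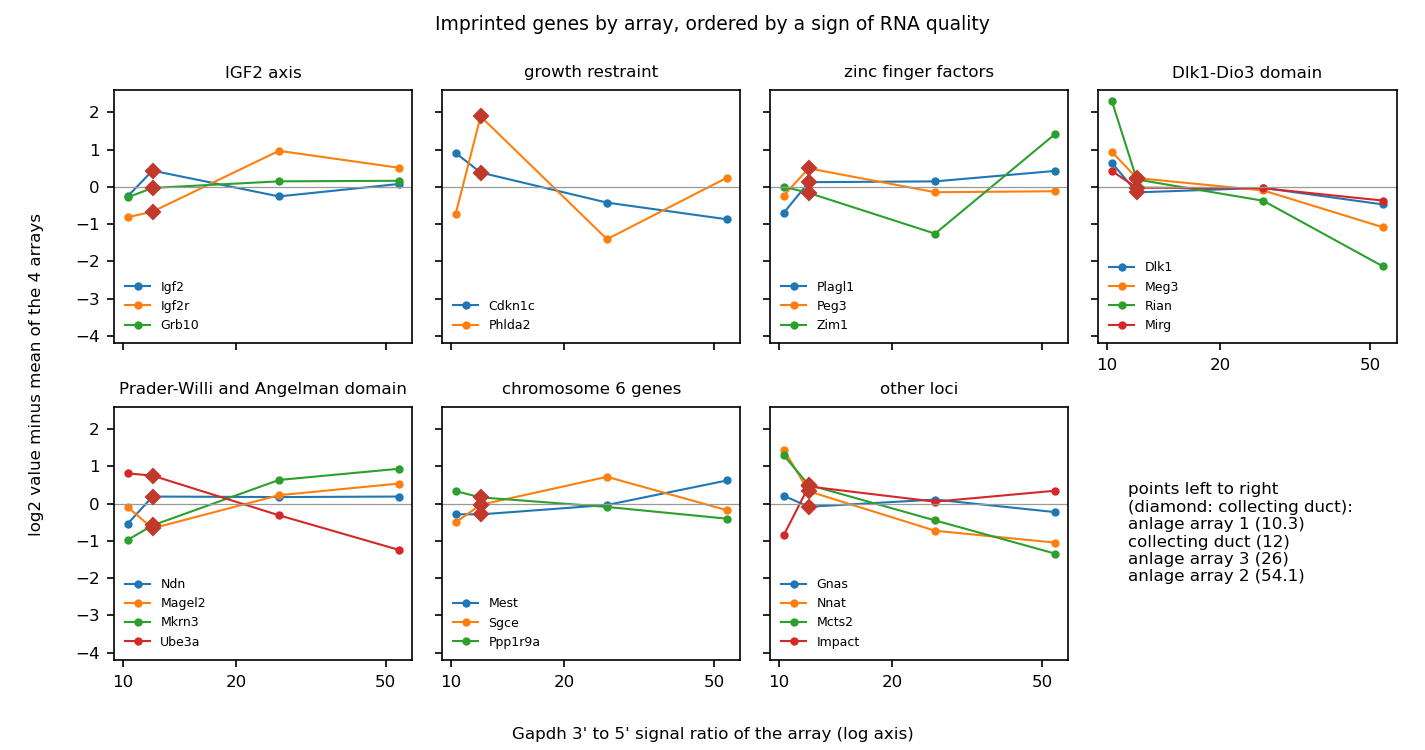
Log2 value of each tested imprinted gene minus its mean over the 4 arrays (y axis) against the array's Gapdh 3′ over 5′ ratio (x axis, log scale), by role; from left to right the points are anlage array 1, the collecting duct (red diamond), anlage array 3 and anlage array 2. Meg3, Rian and Mirg run down from left to right, Dlk1 does so except for a small step up at anlage array 3, and Mkrn3 and Igf2r are lower on the left.

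Genes of the Prader-Willi and Angelman domain on chromosome 7 had differences of both signs. Ndn, a MAGE-family protein read from the paternal copy, stood at 15.41 in the collecting duct and 14.67, 15.41 and 15.39 in the anlage arrays (0.25 ± 0.42). Its 5 bright probe sets lay between −0.03 and 0.30. Magel2, another MAGE-family gene, stood at 8.69 against 9.26, 9.89 and 9.58, below all 3 anlage arrays, with a difference of −0.89 ± 0.54 that did not pass (95% interval −2.20 to 0.42). Mkrn3, a RING-finger gene known for its role in the timing of puberty, stood at 7.86 against 7.46, 9.38 and 9.07 (−0.78 ± 0.83, 95% interval −2.82 to 1.25). The values of Mkrn3 in the collecting duct and anlage array 1 lay under the dim level of 8.42, so the size of this difference depends on the offset. Peg12 (8.04 against 7.79, 9.09 and 7.74) and the probe set that carries the symbol Snrpn alone (7.003 against 6.96, 7.05 and 7.08) were too dim to test.

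Snrpn was also covered by 6 probe sets that are assigned to both Snurf and Snrpn, parts of 1 bicistronic transcript, for a splicing protein and a small nuclear protein. The brightest of these stood at 12.30 in the collecting duct, against 13.39, 12.80 and 13.51 in the anlage, below all 3 (−0.94 ± 0.50 in the fit over every probe set). A second stood at 9.30 against 11.39, 9.89 and 10.36 (−1.25 ± 0.78). Another bright one stood at 9.26 against 9.19, 8.67 and 9.58 and did not share the direction (0.11). No call was made for them after adjustment in that fit.

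Ube3a, a ubiquitin ligase read from the maternal copy in neurons and from both copies in most other cells, stood at 13.95 in the collecting duct, against 14.01, 11.96 and 12.89 in the anlage (1.00 ± 0.81, 95% interval −0.97 to 2.97). Its probe sets disagreed more than those of any other imprinted gene, from −1.46 to 1.07. The lowest of them stood at 7.80 against 9.10, 9.44 and 9.25, below all 3 anlage arrays, while the one with the largest difference stood at 10.78 against 9.11, 10.34 and 9.68, above all 3. In the fit on averaged probe sets the Ube3a difference was −0.0463.

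**Figure D4:**
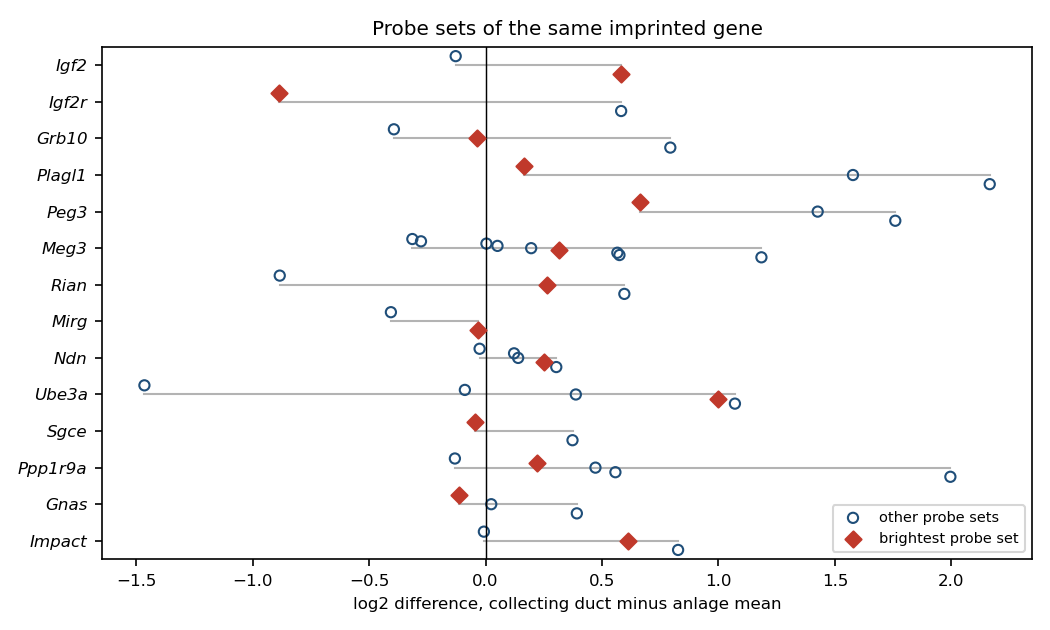
Difference on the log2 scale, collecting duct minus anlage mean (x axis), of every probe set bright enough to test for the 14 imprinted genes that have several (rows); the diamond is the brightest probe set, which stands for the gene, and circles are the others. Probe sets of Peg3 and Plagl1 all lie right of 0, those of Ube3a span −1.46 to 1.07 and those of Igf2 and Igf2r lie on both sides.

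The 3 tested genes of chromosome 6 had differences smaller than the anlage SD by their brightest probe sets. Mest, which resembles alpha/beta hydrolases and is read from the paternal copy, stood at 13.79 in the collecting duct and 13.79, 14.70 and 14.04 in the anlage arrays. It lay below all 3 by a small margin (−0.39 ± 0.49, 95% interval −1.59 to 0.81). Sgce, which encodes epsilon-sarcoglycan, a membrane protein, stood at 11.15 against 10.68, 11.00 and 11.90 (−0.04 ± 0.66). Ppp1r9a, which encodes neurabin, an actin-binding protein that targets a phosphatase, stood at 13.89 against 14.06, 13.32 and 13.64 (0.22 ± 0.47). Of the 5 bright probe sets of Ppp1r9a, 3 lay above all 3 anlage arrays (60%, against 17.5% of all such probe sets). Among these, the brightest stood at 13.81 against 13.41, 13.47 and 13.14 (0.47). A dimmer probe set gave a difference of 2.00, from 11.04 against 10.95, 7.14 and 9.03, where anlage array 1 was close to the collecting duct. Peg10, a gene derived from a retrotransposon, was too dim to test at 7.48 against 8.62, 8.06 and 8.17. Nap1l5, of the nucleosome assembly protein family, was too dim at 7.17 against 6.92, 9.22 and 7.46.

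At the remaining loci no gene passed either. Gnas, the stimulatory G protein alpha subunit that couples hormone receptors such as the vasopressin receptor to cyclic AMP, stood at 15.42 in the collecting duct and 15.72, 15.28 and 15.61 in the anlage arrays. Its difference of −0.12 ± 0.33 had an interval of −0.92 to 0.69. Nnat, a small membrane proteolipid best known from the brain, stood at 11.55 against 12.67, 10.17 and 10.49 (0.44 ± 1.03). Mcts2, a retrotransposed copy of the X-linked gene Mcts1 that its probe set may also read, stood at 13.19 against 13.98, 11.35 and 12.24 (0.67 ± 1.00, 95% interval −1.78 to 3.11). Impact, an inhibitor of the kinase GCN2, stood at 12.13 against 10.83, 12.02 and 11.73, just above the anlage (0.61 ± 0.64, 95% interval −0.96 to 2.18). Its other 2 probe sets differed by −0.01 and 0.83.

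Genes read from the paternal and from the maternal copy had similar medians. The median difference was 0.21 for 12 tested genes of paternal expression and 0.22 for 9 of maternal expression. Gnas, whose copy differs by promoter, and Ube3a, read from both copies in most cells, were counted in neither. The copy of each other gene was assigned beforehand, was not measured here and may also differ by promoter or tissue. Positive differences were found for 7 of 12 (58.3%) and 5 of 9 (55.6%), against 45.1% of all tested genes.

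Other genes reported as imprinted in mice, many of them in brain or placenta alone, were also read. Of 50 such genes 42 had a probe set and 34 were tested. In limma 0 passed after adjustment, and at an unadjusted p under 0.05 there were 3, all lower (background 2.23%). These were Trappc9, Slc22a2 and Dhcr7. The collecting duct lay above all 3 anlage arrays for 6 and below for 12 of the 34 (17.6% and 35.3%), where the backgrounds were 17.3% and 24.3%. Those above were Kcnq1 (1.16 ± 0.51), Osbpl5 (1.07 ± 0.78), Commd1 (1.06 ± 0.84), Slc22a18 (0.84 ± 0.55), H13 (0.69 ± 0.54) and Ddc (0.26 ± 0.51). Asb4, an ankyrin-repeat gene, stood at 8.82 against 9.40, 12.48 and 11.47 (−2.30 ± 1.16). Trappc9, a vesicle trafficking subunit, stood at 7.55 against 9.47, 9.31 and 8.99 (−1.71 ± 0.51). Slc22a2, an organic cation transporter known from the proximal tubule, stood at 7.40 against 8.89, 8.94 and 9.23 (−1.62 ± 0.50). The mean of the 8 proximal tubule markers was 9.05 in the collecting duct, against 10.20, 10.07 and 10.27, and its part in this value was not tested. Airn, the noncoding RNA antisense to Igf2r, stood at 12.56 against 12.94, 9.15 and 10.91 (1.56 ± 1.35).

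The enzymes and factors that lay down or keep imprints gave no called gene in limma, and 0 at an unadjusted p under 0.05. Of 30 such genes 25 were tested, with 3 above (12%, background 17.3%) and 5 below all 3 anlage arrays (20%, background 24.3%) and a median difference of −0.02. Tet2, which oxidises methylated cytosine, stood at 12.85 in the collecting duct, against 13.66, 9.80 and 11.27 in the anlage (1.27 ± 1.38). Zfp57 stood at 7.92 against 10.51, 6.90 and 9.51 (−1.06 ± 1.33). Zfp445, a zinc finger factor that keeps imprints, stood at 13.78 against 14.13, 11.59 and 13.05 (0.86 ± 0.95). Arid4a, a chromatin factor, stood at 8.33 against 8.70, 10.17 and 9.02 (−0.96 ± 0.71). In Tet2 and Zfp445 the order of the arrays was the one described for Meg3.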

How the data were processed

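The authors deposited 1 linear intensity per probe set and array. The software was GCOS, per the submitters' processing notes (version: not given in the sources used here). Every array's mean, with 2% of values trimmed at each end, was 1500.

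Arrays were quantile normalized and converted to log2(signal + 109.6), the offset being the 25th percentile, which shrinks the folds of dim genes. After 64 controls were dropped, the platform table gave a single symbol for 34945 of 45037 probe sets; the 932 with several and the 9160 without any were not tested. A gene was represented by its brightest probe set and tested if its mean reached 8.42 (40th percentile).

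Tests used limma 3.58.1 in R 4.3.3 (lmFit, eBayes with trend; two-sided; Benjamini-Hochberg). The spread comes from the anlage alone (2 residual and 4.04 prior degrees of freedom) and is taken to hold for the single collecting duct array as well. By exact permutation, 1 against 3 could not go below 0.25. The number of arrays limits precision. Every imprinted gene with a probe set is named, and up to 4 of each pathway list by absolute difference. Dhcr7, Lum, Acta2 and the other imprinted genes named as above all 3 anlage arrays were picked after their values were seen. The members and lists were chosen with earlier results of these data known. Sequences are RefSeq's, and no build is stated for the array.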

Additional observations from a re-analysis of the deposited data

How the results depend on the processing

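With limma, 0 of the tested imprinted genes passed under each alternative tried: another scaling, 2 other offsets, no filter, the mean of a gene's probe sets, no intensity trend, single probe sets, all probe sets (chosen after seeing the data), and each anlage array left out, whose range was 0 to 0. At an unadjusted p under 0.05 there were 1 to 7 imprinted genes, 7 (Cdkn1c, Igf2r, Mcts2, Mkrn3, Nnat, Phlda2 and Ube3a) without anlage array 1. Over all genes 0 passed, and 0 to 9 with an anlage array left out, the 9 (2 higher, 7 lower) without array 2, in fits with 1 residual degree of freedom. Imprinted genes above all anlage arrays numbered 4, and 2 with arrays scaled to a common median (10.1% of all genes) and 13 of 59 by single probe sets (17.5% of all); with an anlage array left out, 5 to 12 of 23 (22.5% to 28.1% of all genes), the 12 without array 1 (27.1%). By the mean of a gene's probe sets the 4 above included Plagl1 and not Igf2. Those below numbered 2, and 1 with the median scaling (20.4%). They numbered 3 of 29 with no filter on dim genes (25.2%), Peg10 being added, and 4 of 59 by single probe sets (22.5%). With an array left out they numbered 3 to 6 (28.6% to 46.2%), the 6 without array 1 (46.2%) and 4 without array 2 (30.6%).

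Of 23 differences, 10 kept their sign under the 9 alternatives that gave 1 difference per gene (8 for Mkrn3, not tested with the offset at the 10th percentile) and 13 did not. Igf2, Igf2r and Impact, among the 10, have single probe sets of both signs. Scaling to a common median shifted the median of all genes by −0.18, to −0.24, and turned 5 signs: Meg3 to −0.0539, Mirg to 0.0284, Ndn to −0.073, Plagl1 to −0.16 and Ppp1r9a to −0.15. Relative to the median gene these 5 were positive under both scalings, while Dlk1, Grb10 and Sgce changed sign. The mean of all probe sets turned Gnas to 0.0741, Grb10 to 0.12, Sgce to 0.16 and Ube3a to −0.0463. With an anlage array left out, the differences ran from −0.46 to 0.10 for Dlk1, −0.18 to 0.0389 for Grb10, −0.19 to 0.83 for Meg3, −0.22 to 0.18 for Mirg, −0.0306 to 1.22 for Nnat, −0.16 to 0.40 for Plagl1, −0.77 to 1.45 for Rian, −0.30 to 0.31 for Sgce and −0.87 to 0.46 for Zim1. The cause of these changes was not tested. No paired analysis was possible because the groups share 1 replicate number.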
